A study of Mus musculus with 6 samples.

Results

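Oxidative phosphorylation is the process by which mitochondria turn the energy of nutrients into ATP. Complex I takes electrons from NADH, complex III passes them to cytochrome c, and complex IV hands them to oxygen. These complexes move protons across the inner mitochondrial membrane, and complex V, the ATP synthase, lets them flow back to make ATP. Most subunits are encoded in the nucleus and a small set in the mitochondrial genome, and B cells of the germinal centre, which divide fast and compete for antigen, are reported to rely on it. The genes described here are the nuclear subunits. They were chosen by name, as protein-coding rows of the deposited table whose symbols begin with Nduf followed by a subunit letter and number, with Uqcr, with Cox and a subunit number from 4 to 8, or with Atp5, plus Cyc1. This gave 83 of the 55421 listed genes: 38 of complex I, 9 of complex III, 18 of complex IV and 18 of complex V.

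RNA was sequenced from GFP-positive splenocytes of C57BL/6 mice carrying an AID-GFP reporter, which marks B cells that switch on the antibody-mutating enzyme AID. All mice had been immunized with the hapten-carrier antigen NP(18)OVA in alum, and spleens were taken on day 9. The 3 wildtype libraries carried the reporter and the intact SLAM locus. The 3 SFR KO libraries carried the same reporter and a deletion running from the first intron of Cd244 to exon 8 of Slamf6 and covers 7 receptor genes: Cd244, Ly9, Slamf7, Cd48, Slamf1, Cd84 and Slamf6. The labels do not say whether the 3 libraries of a group came from separate mice or from pools, so the p-values given here reflect only how these samples vary, and that variation may be technical. The question was whether loss of the receptors changed the RNA profile of germinal centre B cells, and here whether it changed the respiratory subunit transcripts.

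Libraries held between 28269310 and 33053024 reads assigned to genes. The deletion was visible in the table: normalized reads of Ly9, a SLAM receptor, lay between 2162 and 4049 in wildtype and were 0 in each SFR KO library. The 9 germinal centre B cell markers summed to 284810, 282107 and 279778 in wildtype and to 299994, 291730 and 291229 in SFR KO, so that all SFR KO sums lay above all wildtype sums. In 4 of the 9 (44.4%) the groups did not overlap, 3 higher and 1 lower, where 21.7% of all tested genes did not. limma called none, with 2 of 9 (22.2%) at an unadjusted p under 0.05, where 16.1% of all tested genes were. Markers of other cell types were uneven as well. T cell markers, 7 of 7 tested, summed to 4422, 4344 and 4240 normalized reads among wildtype libraries and to 4537, 6076 and 6838 in SFR KO. Markers of resting follicular B cells, 5 of 5 tested, summed to 16883, 17074 and 13041 in wildtype and to 15882, 8062 and 8128 in SFR KO. In the sums of both lists SFR KO 1 lay near wildtype and apart from SFR KO 2 and 3. The T cell sum was mostly Lck, at 3797, 3903 and 3927 in wildtype and 3920, 5288 and 6155 in SFR KO. Trac had 138, 122 and 74 in wildtype and 175, 174 and 179 in SFR KO, so there SFR KO 1 lay with its group. In 3 of the 7 T cell markers the groups did not overlap, all higher, where 21.7% of all tested genes did not. The difference of 1 of the 7, Cd8a, was below 0. Neutrophil markers summed to 4672 in wildtype 1 and 1425 in SFR KO 1 against 298 to 726 in the other libraries, and 4 of these 6 markers were tested. Macrophage markers, 6 of 6 tested, summed to 1230, 771 and 649 in wildtype and to 1602, 631 and 807 in SFR KO, and each of the 6 was highest in SFR KO 1. Red cell markers, 6 of 6 tested, summed to 7886, 1624 and 1435 in wildtype and to 4225, 1560 and 2971 in SFR KO. Plasma cell markers, 4 of 5 tested, summed to 28099, 28948 and 28161 in wildtype and to 32132, 31562 and 31041 in SFR KO. Most of that sum was Jchain, with means of 22566 in wildtype and 25652 in SFR KO. Sdc1 went the other way, with 46.5, 35.9 and 47.7 in wildtype and 29.6, 27.4 and 28.1 in SFR KO. Of the 4 tested, the groups did not overlap in 1 higher and 1 lower, where 21.7% of all tested genes did not. In bulk RNA, fewer cells of a type and less RNA per cell cannot be told apart. SFR KO 1 also stood apart in the respiratory genes themselves, so results are given with and without it. The part of other cell types in these results was not tested.

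Nuclear respiratory genes are known for promoters that hold binding sequences of NRF1, of ETS factors such as GABP, of YY1 and of the oestrogen-related receptors. RefSeq promoters of GRCm38.p6, 250 bases before to 50 after each gene's start, were matched to 66 of the 82 member symbols, 64 of them expressed enough to be tested. The 4 motifs searched on both strands were GCGCA with any base and then GCGC for NRF1, CCGGAAG for ETS factors, AANATGGCG for YY1 and TCAAGGTCA for the oestrogen-related receptor ESRRA; no letters of one motif hold another. At least 1 of them was found in 35 of the 64 promoters and in 16.2% of the promoters of all genes. That share includes genes not expressed here, and it was not computed over expressed genes alone, so the 2 are not like for like. The NRF1, ETS and YY1 letters were each more frequent among expressed genes than among all genes, as given below. The ESRRA letters were in 0.34% of expressed genes. The following 30-base stretches are shown because they carry the match nearest the gene start in subunit genes described below, with the match in capitals; Ndufa7 is added only as an example of the YY1 letters. Each reads 5′ to 3′ on the gene's strand.
Ndufb4, complex I, NRF1, chr16:37654371-37654400, minus strand: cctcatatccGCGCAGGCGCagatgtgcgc
Atp5g2, complex V, NRF1, chr15:102671070-102671099, minus strand: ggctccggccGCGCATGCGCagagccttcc
Atp5k, complex V, NRF1, chr5:108434430-108434459, minus strand: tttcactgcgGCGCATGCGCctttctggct
Ndufb6, complex I, ETS, chr4:40279635-40279664, minus strand: tcgtccttgttCTTCCGGtcccctccccta
Uqcrh, complex III, ETS, chr4:116075071-116075100, minus strand: actacgaggagtatgccgcaCTTCCGGcca
Cox6a1, complex IV, ETS, chr5:115348959-115348988, minus strand: cgtccccatttccgCTTCCGGcgcgccggt
Cox6b1, complex IV, ETS, chr7:30626124-30626153, minus strand: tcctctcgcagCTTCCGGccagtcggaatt
Ndufa7, complex I, YY1, chr17:33824615-33824644, plus strand: cggagcggaaggAATATGGCGtccgctact
Atp5g3, complex V, ESRRA, chr2:73911359-73911388, minus strand: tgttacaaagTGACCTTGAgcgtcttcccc

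The NRF1 letters were in 15 of the 64 promoters (23.4%), against 5.19% of the 27025 genes with a RefSeq promoter and 12% of the 9693 of those that were expressed enough to be tested. The YY1 letters were in 10 (15.6%), against 2.76% and 6.26%. The ETS letters were also in 15 (23.4%), against 9.93% of all genes, but 21.3% of expressed genes held them too. The ESRRA letters were in 1 promoter, that of Atp5g3, and in 0.466% of all genes. Members with and without the NRF1 letters had a median log2 difference between genotypes of 0.05 in each case. The same held for the YY1 letters. For the ETS letters the median was 0.06 with them and 0.04 without. These contrasts were not tested. A match describes letters and is not evidence of binding.

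Respiratory subunit transcripts were abundant and differed little between the genotypes. A gene was tested when its mean over the 6 libraries reached 10 normalized reads, which left 76 of the 83 members among 13562 genes. Together the members took 1.01%, 0.990% and 1.04% of the reads of wildtype 1, 2 and 3, and 1.10%, 1.03% and 0.995% of those of SFR KO 1, 2 and 3. Their summed normalized reads were 313908 ± 6846 (SD, n = 3) in wildtype and 322458 ± 16290 in SFR KO, a ratio of 1.03, and the ranges of the groups overlapped.

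No subunit gene was called different at an adjusted p under 0.05 by limma over all genes, where 0.465% of tested genes (63) were called, 0.155% higher and 0.310% lower. The lowest adjusted p among members was 0.154, for Cox7c. At an unadjusted p under 0.05, 7 of 76 members were found, all higher in SFR KO; that is 9.21% of members against a background of 16.1% of all tested genes, made up of 7.04% higher and 9.07% lower. edgeR's quasi-likelihood test and DESeq2 on the recovered reads also called 0 members, where they called 0.221% and 4.53% of all genes. They put 8 and 7 members at an unadjusted p under 0.05, where 15.9% and 13.7% of all genes were. With limma, the number of such members fell from 7 to 1 without wildtype 2, where 12.1% of all genes were. It fell to 3 without SFR KO 1 or without SFR KO 2, where 19.4% and 11.0% of all genes were. In the authors' deposited table, 0 of the 74 members with an adjusted p were under 0.05, where 4.80% of all genes with one were, and the lowest was 0.128 for Cox7c.

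The measurements were precise enough to bound most differences. Standard errors of the log2 difference had a median of 0.06 over members and 0.10 over all tested genes. The unadjusted 95% interval lay within ±0.5 on the log2 scale, a 1.41-fold difference, for 74 of 76 members; the exceptions were the scarce isoforms Cox6b2 and Cox7a1. It lay within ±0.3, or 1.23-fold, for 66 of 76 (86.8%), against 39.1% of all tested genes. The coefficient of variation between libraries had a median of 3.87% in wildtype and 6.37% in SFR KO over members. Over all tested genes it was 7.51% and 8.51%. Members were more abundant, with a median level of 2829 normalized reads against 615. These comparisons of precision with all tested genes are therefore not like for like. The 8599 protein-coding genes averaging 200 or more normalized reads had medians of 5.19% in wildtype and 5.85% in SFR KO. Beside that set, members varied less in wildtype and more in SFR KO.

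**Figure D1:**
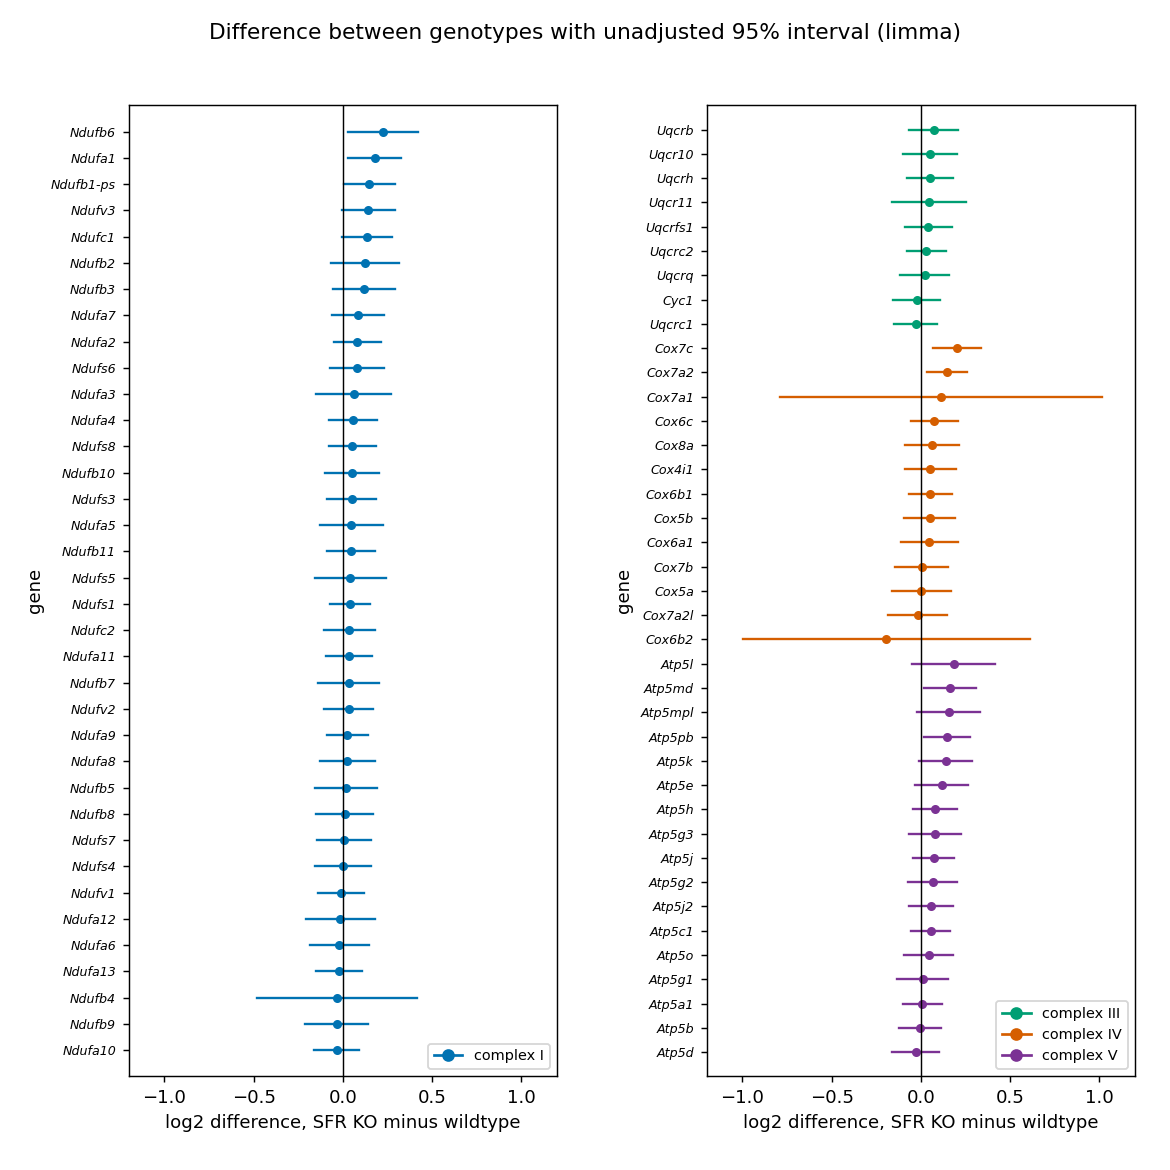
Log2 difference of each tested subunit gene but 1 that is not drawn, SFR KO minus wildtype, on log2(normalized reads + 1), as a point with its unadjusted 95% interval from limma, coloured by complex. Points lie between -0.19 (Cox6b2) and 0.23 (Ndufb6), and most intervals include 0.

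A slight tilt to the SFR KO side ran across all complexes, and SFR KO 1 lay furthest to that side. Of the 76 differences 62 were above 0 (81.6%), against 49.3% of all tested genes. The median log2 difference was 0.05 over members, 0.04 in complex I, 0.04 in complex III, 0.05 in complex IV and 0.07 in complex V, and -0.0030 over all genes. Differences ran from -0.03 to 0.23 in complex I, from -0.03 to 0.07 in complex III, from -0.19 to 0.20 in complex IV and from -0.03 to 0.18 in complex V. SFR KO 1 was the highest of the 6 libraries in 60 of 76 members (78.9%), where it was the highest in 20.0% of all genes, and it was the lowest in none. SFR KO 1 lay above all 3 wildtype libraries in 62 members, SFR KO 2 in 34 and SFR KO 3 in 15, where 29.6%, 29.2% and 29.0% of all genes did. SFR KO 1, 2 and 3 lay below all 3 wildtype libraries in 0, 11 and 24 members, where 31.9%, 30.5% and 31.0% of all genes did, so the 24 members of SFR KO 3 are near the share of all genes.

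Without SFR KO 1 the tilt was gone over the members as a whole, though 12 of 17 complex V differences stayed above 0. Without SFR KO 3 the tilt was larger, with a median of 0.09. Against the wildtype mean, the members' median was 0.04 in SFR KO 2 and -0.03 in SFR KO 3. The median over members was 0.00053 when SFR KO 1 was left out, with 39 differences above 0 and 37 below, and the complex medians were -0.0034 for complex I, -2.93e-05 for complex III, 0.00062 for complex IV and 0.03 for complex V. No member was called without it either, although 3.70% of all genes (501) were, and 3 members were at an unadjusted p under 0.05 against 19.4% of all genes.

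**Figure D2:**
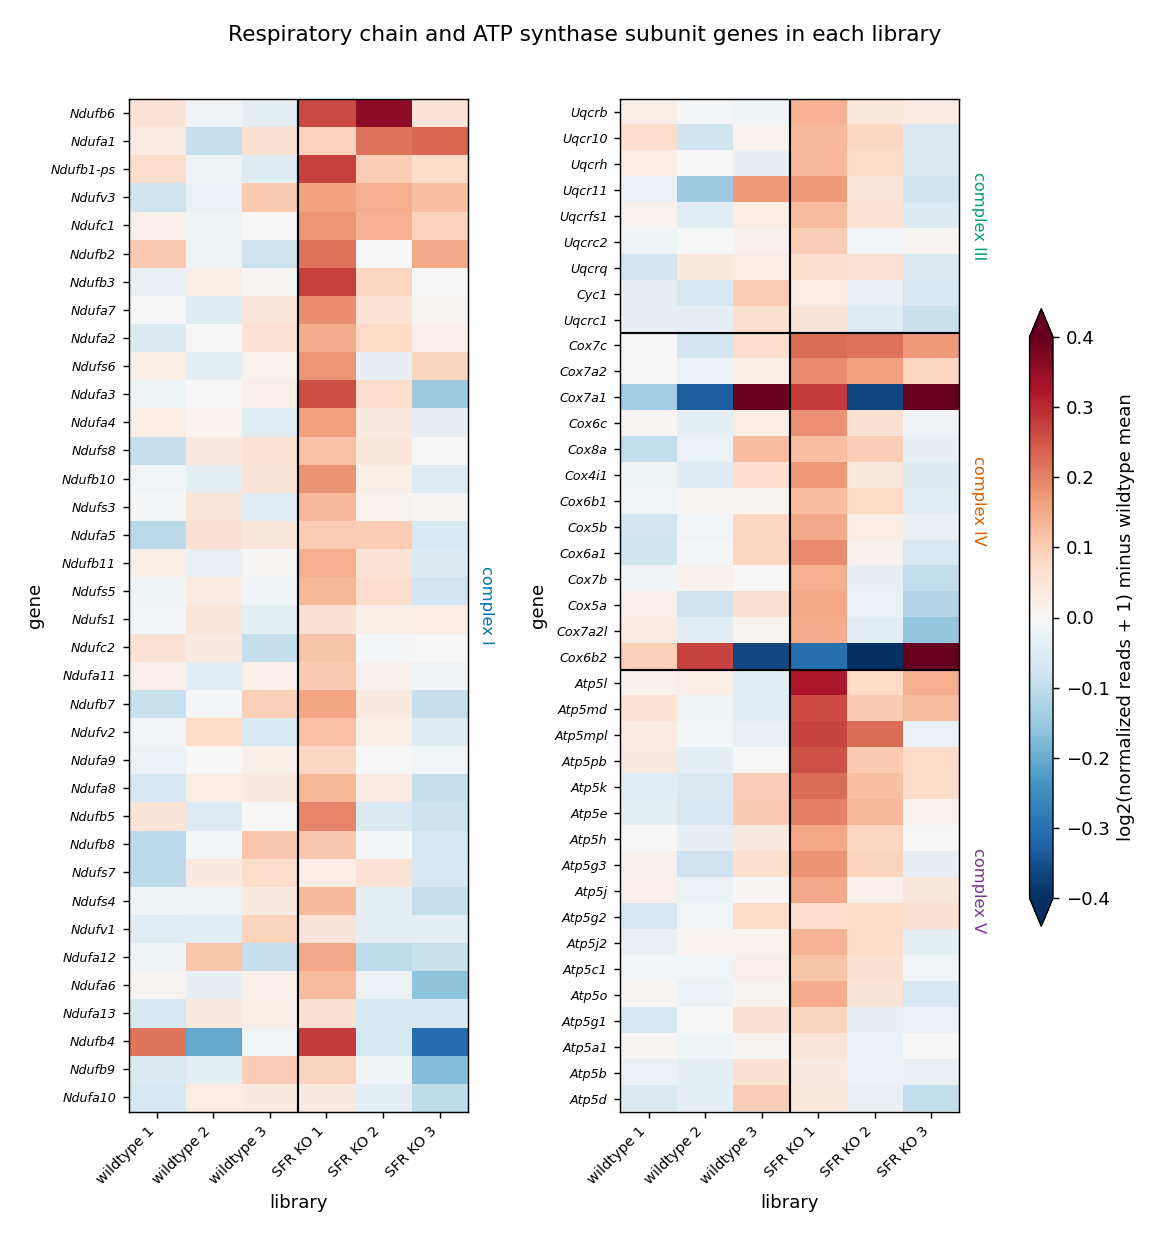
Each tested subunit gene but 1 that is not drawn (rows, ordered by difference within its complex) in each library (columns), as log2(normalized reads + 1) minus the wildtype mean, with the colour scale held between -0.4 and 0.4. The SFR KO 1 column is red in nearly all rows, being the highest library in 60 of 76, while SFR KO 3 is blue in many, being the lowest in 24.

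Transcript length moved with this tilt. Subunit transcripts are short: the longest annotated transcript had a median of 992 bases over members and 3046 over all tested genes. In the shortest of 5 equal classes of genes by length, up to 1566 bases, the median difference of all 2707 genes was 0.04, and that of the 51 members in the class was 0.05. In the class of longest genes the median of all genes was -0.03. Against the wildtype mean, the shortest class stood at 0.10, 0.04 and 0.0019 in SFR KO 1, 2 and 3, the same order as the members' own medians of 0.14, 0.04 and -0.03. When each library's trend with length was removed, the median over members was 0.0094, with 49 of 76 above 0. The part of RNA quality or library preparation in this was not tested.

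Single genes differed by little more than their spread. In 12 of 76 members (15.8%) all SFR KO libraries lay above all wildtype libraries and in 0 all lay below, where 21.7% of all tested genes separated, 9.78% upward and 11.9% downward. They were Ndufa1, Ndufb6, Ndufb1-ps, Ndufc1 and Ndufv3 of complex I, Uqcrb of complex III, Cox7c and Cox7a2 of complex IV, and Atp5md, Atp5pb, Atp5j and Atp5l of complex V. Without SFR KO 1 the same 12 lay above and 6 others lay below, 18 in all, against 38.2% of all genes, or 18.1% above and 20.0% below.

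In complex I the core subunits carry the flavin and iron-sulphur centres and the path of the electrons, and accessory subunits surround and stabilise the core. The 7 nuclear core genes had a median log2 difference of 0.03 and the 30 accessory genes 0.04, both near the 0.05 of all members. At an unadjusted p under 0.05 were 0 of the 7 and 3 of the 30 (10.0%), where 16.1% of all tested genes were.

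Ndufa1, a small accessory subunit needed for assembly of the membrane arm (chrX:37187588-37191163), had 1759.7, 1611 and 1793 normalized reads among wildtype libraries and 1833, 1998 and 2015 in SFR KO. Here SFR KO 1 was the lowest of the SFR KO libraries, unlike in most members. The log2 difference was 0.18 ± 0.07 (SE; limma adjusted p = 0.231), and 0.22 ± 0.07 without SFR KO 1, where its adjusted p of 0.0985 was the lowest of any member. Ndufb6, another membrane-arm accessory subunit (chr4:40270591-40279421), had 945, 902 and 886 normalized reads among wildtype libraries and 1093, 1167 and 946 in SFR KO. SFR KO 3 was level with wildtype 1, and the log2 difference was 0.23 ± 0.09 (limma adjusted p = 0.245), the largest among members.

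Ndufb1-ps is the mouse gene for the small membrane-arm subunit NDUFB1, annotated as protein-coding despite its symbol (chr12:101968090-101977068). It had 5180.5, 4856 and 4763 normalized reads among wildtype libraries and 5960.4, 5290.1 and 5187 in SFR KO, so that SFR KO 3 and wildtype 1 nearly touched. The log2 difference was 0.15 ± 0.06 (limma adjusted p = 0.293), and 0.09 ± 0.05 without SFR KO 1. The gene overlaps Cpsf2 on the other strand over 1081 bases, and reads of such partners cannot be told apart where counting ignores strand. Of the 83 members, 23 overlap an expressed gene on the opposite strand in this way.

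In complex III, which has the narrowest spread of differences, values ran from -0.03 for the core protein gene Uqcrc1 to 0.07 for Uqcrb. Uqcrb, a small subunit on the matrix side, had 1296, 1269 and 1259 normalized reads among wildtype libraries and 1405, 1314 and 1303 in SFR KO. The groups barely separated, and the log2 difference was 0.07 ± 0.06 (limma adjusted p = 0.612). The hinge protein gene Uqcrh, at 0.05 ± 0.06 (limma adjusted p = 0.728), and Uqcr10, at 0.05 ± 0.07 (0.765), overlapped between groups. Cyc1, the haem protein that hands electrons to cytochrome c, had 3685 ± 230.1 (SD, n = 3) normalized reads among wildtype libraries and 3624 ± 122 in SFR KO.

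In complex IV 2 small accessory genes stood at the top. Cox7c (chr13:86044816-86046904), a single-helix subunit at the rim of the enzyme, had 1476, 1401 and 1547 normalized reads among wildtype libraries and 1720.4, 1713 and 1659 in SFR KO. All 3 SFR KO libraries were close together and clear of wildtype. The log2 difference was 0.20 ± 0.06 (95% interval 0.07 to 0.34, unadjusted p = 0.00745, limma adjusted p = 0.154), and 0.19 ± 0.07 without SFR KO 1.

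Cox7a2 (chr9:79755361-79759878), a small subunit within the membrane, had 2909, 2870.0 and 2967 normalized reads among wildtype libraries and 3327, 3265 and 3095 in SFR KO. The groups did not overlap, and the log2 difference was 0.15 ± 0.05 (limma adjusted p = 0.213), or 0.12 ± 0.05 without SFR KO 1. Cox6c, which followed, overlapped between groups, at 0.08 ± 0.06 (limma adjusted p = 0.573). The large regulatory subunit gene Cox4i1, an early component of assembly, had 10587, 10331 and 11225 normalized reads among wildtype libraries and 12078, 11020.2 and 10311 in SFR KO, which overlapped.

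In complex V, values are given by position in the enzyme. The 5 genes of the F1 part, the head that makes ATP and its central stalk, had a median log2 difference of 0.0077. Their differences ran from -0.03 to 0.12. The 12 tested genes of the outer stalk, membrane part and associated factors had a median of 0.08, all of them above 0. Among the 12, SFR KO 1 was the highest library in 11. The difference between these sets was not tested.

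The catalytic and partner subunits of the head were level. Atp5b, the catalytic beta subunit, had 39232, 38739 and 41581 normalized reads among wildtype libraries and 40807, 39228 and 39046 in SFR KO, a log2 difference of -0.01 ± 0.05. Atp5a1, the alpha subunit, had 42136, 41454 and 42301 in wildtype and 43371, 41307 and 41906 in SFR KO, a log2 difference of 0.01 ± 0.05. The 95% intervals ran from -0.12 to 0.11 for Atp5b and from -0.10 to 0.12 for Atp5a1.

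Atp5md, a small protein of the membrane part that supports dimers of the enzyme (chr19:47083464-47090647), had 1499.5, 1422 and 1399 normalized reads among wildtype libraries and 1726, 1549 and 1572 in SFR KO. Atp5pb, subunit b of the stalk that holds the head still (chr3:105942698-105960099), had 8325, 7904 and 8117 in wildtype and 9682, 8716 and 8549 in SFR KO. In both, SFR KO 1 was well above the rest and the other 2 SFR KO libraries were just above wildtype. Their log2 differences were 0.17 ± 0.06 and 0.14 ± 0.06 (limma adjusted p = 0.255 and 0.259), and 0.12 ± 0.06 and 0.09 ± 0.05 without SFR KO 1. Atp5pb overlaps Wdr77 on the other strand over 731 bases. Atp5k, subunit e of the membrane part, overlapped between groups, with 1868, 1849 and 2059.8 normalized reads among wildtype libraries and 2244, 2090.0 and 2026 in SFR KO.

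Levels between genes were compared per kilobase of transcript, as means over the 6 libraries, with the shortest best-ranked transcript as a gene's length. Complex V held the most abundant pair, Atp5b at 20758 and Atp5a1 at 17029 normalized reads per kilobase. The highest in complex IV were Cox4i1 at 14665 and Cox8a at 11789.5. The median was 2385 in complex I, 3770 in complex III, 6841 in complex IV and 5853 in complex V, against 243 over all tested genes. The most abundant complex I genes, Ndufa4 at 7189 and Ndufb1-ps at 6046, were below the complex V pair, and Ndufa4 is a protein that later work places in complex IV. In complex III, Uqcrh led at 10142, with Uqcr10 at 5272 and the lowest pair, Uqcrb at 2444 and Cyc1 at 2404, close together. With the longest principal transcript as the length, the lowest in complex III was instead Uqcrq, at 1243 rather than 4669.5.

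A few values at the low end may reflect how reads were assigned. Ndufb4 stood at 124 and Atp5l at 669 normalized reads per kilobase, far under their complexes' medians, and both belong to families with near-identical copies that could split their reads. Ndufc1, next lowest in complex I, stood at 859, but with the longest principal transcript as the length Ndufb2 stood at 193 rather than 1854. The 13 pseudogenes in the table that carry a member's name had at most 14.6 normalized reads on average, but copies under other names were not traced.

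**Figure D3:**
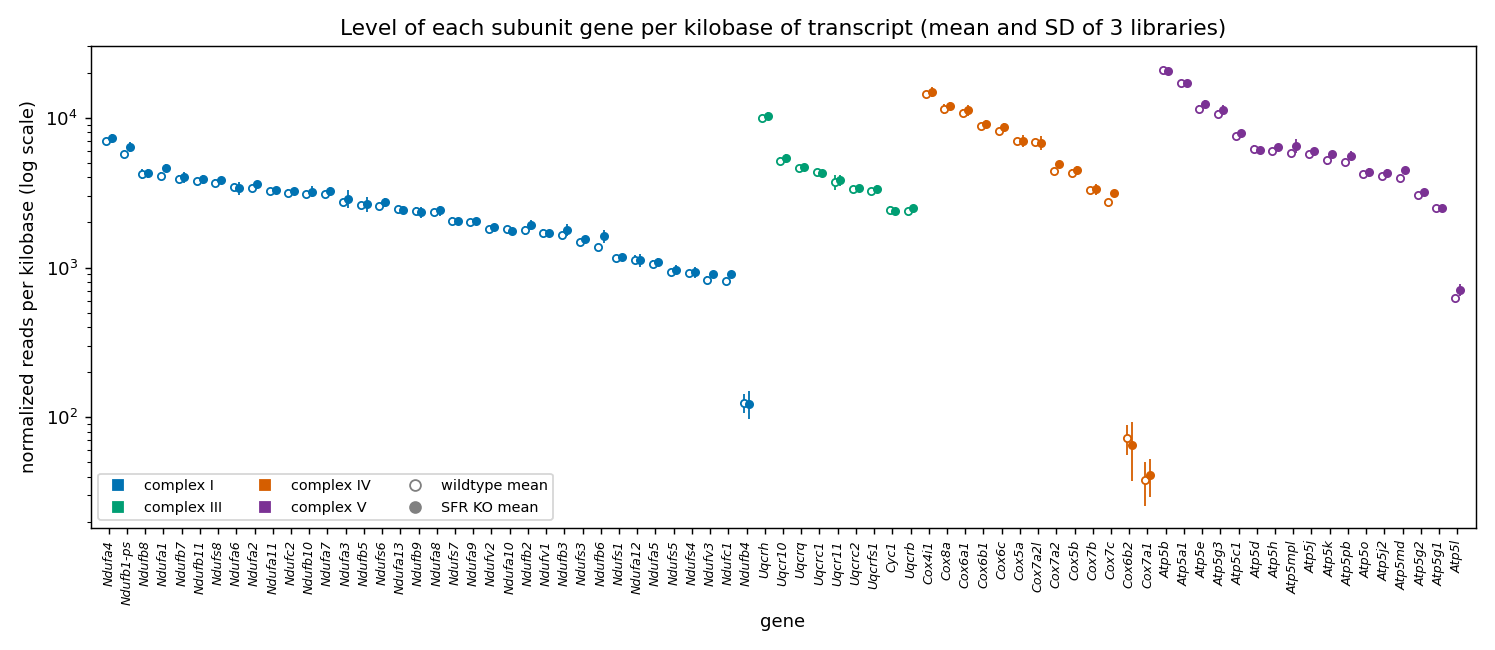
Mean level of each tested subunit gene but 1 that is not drawn, per kilobase of transcript on a log axis, with the SD over 3 libraries, open for wildtype and filled for SFR KO, coloured by complex and ordered by level. Wildtype and SFR KO points nearly coincide from Atp5b at 20758 down to Cox7a1 at 39.4 normalized reads per kilobase.

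Several subunits have a second copy known from heart, muscle, lung or testis, and transcripts here came almost only from the common copy. Cox4i1 made up 99.96% of the Cox4i pair per kilobase, Cox6a1 99.98% of Cox6a and Ndufa4 99.9% of the Ndufa4 pair. Cox4i2, the hypoxia and lung form, had 14 reads in the 3 wildtype libraries together and 11 in SFR KO. The muscle form Cox6a2 had 4 and 3, and Ndufa4l2, a hypoxia-inducible relative, had 9 and 15; all 3 fell under the minimum for testing.

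The testis form Cox7b2, the muscle form Cox8b, the testis form Cox8c and a second row named Atp5o had 0 reads in 186392163, which allows for up to 3 reads in that total by counting error alone. Beside them Cox7b had 3320 ± 36.5 (SD, n = 3) normalized reads among wildtype libraries and 3338 ± 295 in SFR KO, and Cox8a 6348 ± 503 and 6621 ± 372. The second Atp5o row overlaps the expressed Atp5o on the same strand over 1769 bases. Its 0 may therefore reflect how reads were assigned, which was not tested.

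The remaining isoform pairs had a detectable minor copy. Cox6b2, the testis form, made up 0.764% of the Cox6b pair, with 102 reads in wildtype and 93 in SFR KO. Cox7a1, the heart and muscle form, made up 0.839% of the pair with Cox7a2, with 45 and 49 reads. Their log2 differences of -0.19 ± 0.36 and 0.11 ± 0.40 were not distinguishable from 0 at this depth. Cox7a2l, which matches the name pattern but encodes a factor joining complexes III and IV, had 7563, 7163 and 7454 normalized reads among wildtype libraries and 8188, 7162 and 6637 in SFR KO. The SFR KO libraries lay on both sides of wildtype, and the log2 difference was -0.02 ± 0.07.

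The membrane ring of complex V is encoded by 3 genes whose mature proteins are the same. Atp5g3 gave 66.1% of their reads per kilobase, Atp5g2 18.9% and Atp5g1 15.0%, with Atp5g1 at 2489.7 per kilobase, in complex V above Atp5l alone. With the longest principal transcript as the length of each, the shares were 83.3%, 14.3% and 2.39%, and Atp5g1, at 315, lay below Atp5l too. The order among the 3 genes was kept, and the shares were not. Across the 6 libraries the Atp5g3 share ran from 64.6% to 67.4%, and the genotypes overlapped.

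The other nuclear genes of the chain were not called either. All 4 complex II genes, of the succinate dehydrogenase that is wholly nuclear, were above 0 with a median log2 difference of 0.04. Of these, 0 were called, where 0.465% of all tested genes were. At an unadjusted p under 0.05 were 0, where 16.1% of all tested genes were. Sdhc was at 0.15 ± 0.07 (limma adjusted p = 0.349) and Sdhb at 0.05 ± 0.05 (0.674). Without SFR KO 1, 2 of the 4 were above 0. Cycs, cytochrome c itself, was at 0.06 ± 0.08 (limma adjusted p = 0.734), and its testis copy Cyct was not tested.

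Mitochondrial genome transcripts, the partners of these subunits, were summed in the same way. The mitochondrial subunit mRNAs summed to 413510, 603902 and 424671 normalized reads among wildtype libraries and to 683636, 689284 and 688675 in SFR KO. As a percentage of the nuclear subunit sum they were 133, 196 and 132 in wildtype and 201, 216 and 223 in SFR KO. The groups did not overlap in either measure, but wildtype 2 lay close to the SFR KO libraries and far from the other wildtype libraries.

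Of 13 mitochondrial mRNAs 8 were tested, with a median log2 difference of 0.51 and 6 at an unadjusted p under 0.05, all higher, where 16.1% of all genes were; limma called 0. mt-Co1, the catalytic subunit of complex IV, was at 0.56 ± 0.12 (limma adjusted p = 0.0884) and mt-Nd4, of the complex I membrane arm, at 0.55 ± 0.13 (0.104). Without wildtype 2, the wildtype library closest to SFR KO, 6 of 8 were called, where 0.191% of all genes were, and the median was 0.69. Leaving out wildtype 1, wildtype 3, SFR KO 2 or SFR KO 3 gave 0 called, with medians of 0.42, 0.44, 0.50 and 0.52. DESeq2 with all libraries called 1, where it called 4.53% of all genes. With each library's trend with GC content removed the median was 0.32. Without SFR KO 1 the median was 0.52, and 1 was called, where 3.70% of all genes were. The other 5, mt-Co2, mt-Co3, mt-Atp6, mt-Atp8 and mt-Nd4l, are listed at or near 0, so these sums leave out part of the mitochondrial genome's output.

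**Figure D4:**
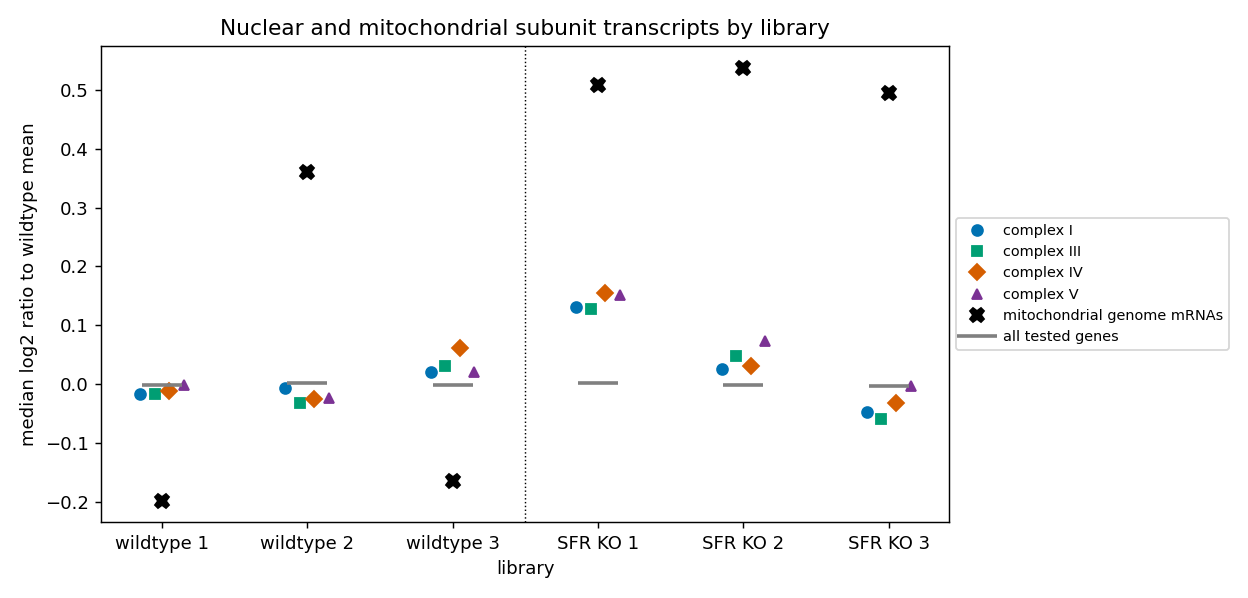
Median log2 ratio to the wildtype mean in each library, for the tested nuclear subunit genes of each complex (coloured), the tested mitochondrial genome mRNAs (crosses) and all tested genes (grey lines). Nuclear complexes lie highest in SFR KO 1, at 0.13 to 0.15, while mitochondrial mRNAs lie at 0.49 to 0.54 in all SFR KO libraries and at 0.36 in wildtype 2.

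Assembly factors, which build the complexes without staying in them, did not share one direction. The 16 complex I factors had 4 differences above 0 and 12 below, with a median of -0.07; the lowest p belonged to Ndufaf6 at -0.32 ± 0.19 (limma adjusted p = 0.456) and Ndufaf4 at -0.15 ± 0.09 (0.473). The 21 tested complex IV factors had 14 above and 7 below, with a median of 0.03, with Coa7 at -0.22 ± 0.10 (limma adjusted p = 0.324) and Cox20 at 0.21 ± 0.10 (0.336). The 6 complex III factors split evenly, among them Bcs1l at 0.13 ± 0.10, and all 4 complex V factors were above 0, at a median of 0.07, among them Atpaf2 and Atpif1. None of these factors was called, where 0.465% of all tested genes were. None had an unadjusted p under 0.05, where 16.1% of all tested genes did. Without SFR KO 1 the complex I factors had a median of -0.14, with 14 of 16 below 0, the complex III factors -0.07, and those of complexes IV and V 0.02 in each.

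Of the 11 tested transcription factors and coactivators of respiratory genes, 2 had differences above 0 and 9 below, with a median of -0.05. At an unadjusted p under 0.05 were 4 of the 11, where 16.1% of all genes were. They were Myc, Polrmt at -0.38 ± 0.08 and Pprc1 at -0.29 ± 0.08, and on the higher side Esrra at 0.23 ± 0.09. In these 4 of the 11 (36.4%) the groups did not overlap, where 21.7% of all tested genes did not. Genes picked by a low p tend to separate, so this adds no separate evidence. Myc, which drives growth and mitochondrial biogenesis genes, was called lower in SFR KO, with 1715, 1653 and 1614 normalized reads among wildtype libraries and 1076, 1139.7 and 1282 in SFR KO. The groups were well apart, and the log2 difference was -0.51 ± 0.07 (limma adjusted p = 0.0322). The call was lost in 6 of 16 alternatives, with adjusted p up to 0.177, among them each wildtype library left out, SFR KO 2 left out, and the GC or length trend removed. In those 6 the log2 difference lay between -0.47 and -0.53, close to its value with all libraries. DESeq2 with all libraries called 3 of the 11, where it called 4.53% of all genes. Without SFR KO 1 the list's median was -0.0061 and limma called 2 of its genes, where 3.70% of all genes were called.

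The 15 genes that stand for mitochondrial mass, such as channel and import proteins, had 7 differences above 0 and 8 below, with a median of -0.01, 0 called and 2 at an unadjusted p under 0.05, or 13.3% where 16.1% of all genes were. Hspd1, the matrix chaperonin, was at -0.18 ± 0.07 (limma adjusted p = 0.26) and Tomm40, the import pore, at -0.13 ± 0.05 (0.273). Without SFR KO 1 the median was -0.04. In these genes too SFR KO 1 was most often the highest library, in 7 of 15.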

How the data were processed

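RNA-seq of 3 wildtype and 3 SFR KO libraries of sorted germinal centre B cells was used, grouped by the genotype in the labels and numbered in accession order. The submitters' processing notes name the build GRCm38, the aligner STAR 2.5, the counter featureCounts 1.5 and DESeq2 1.14.1. The annotation release and strand setting were not given in the sources used here. For each gene, the signal that the authors deposited is the read count scaled for library size. A second set of deposited columns gives the authors' log2 fold change, its error, their test's score and a raw and adjusted p-value.

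All values were whole multiples of 1 read (100% within a tolerance of 1e-06), so reads were recovered by division, at 28269310 to 33053024 per library. Positions and lengths came from GENCODE M21 on the same build, matched for 99.7% of genes and all 83 members. Per-kilobase levels used the shortest of the best-ranked protein-coding transcripts.

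The test was limma 3.58.1 in R 4.3.3 (lmFit, eBayes with a trend, two-sided) on log2(normalized count + 1) over genes with a mean of at least 10, with Benjamini-Hochberg adjustment over all 13562 and a threshold of 0.05. Fold changes on this scale understate the change of low genes. Alternatives were pseudocounts of 0.5 and 5, no filter or a minimum of 50, TMM and upper quartile scaling, edgeR 4.0.16 and DESeq2 1.42.0 on the recovered reads, correction of every library for GC content or for length (splines with 4 degrees of freedom), and each library left out. The steps were tested on simulated data.

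Members and gene lists were chosen with earlier results of these data known. The text names members called, the 3 of lowest p and the 2 highest and 2 lowest per-kilobase levels in each complex, isoform families, name matches that are not subunits, and from each list the called genes or the 2 of lowest p. Uqcrc1, Uqcrq, Ndufb2, Ndufv3, Atp5j, Ndufa7, Polrmt, Pprc1 and Esrra fall outside this rule and were chosen after values were seen. One member is counted in all totals but not reported here by itself.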

Additional observations from a re-analysis of the deposited data

How the results depend on the processing

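No member was called in the main analysis or in any of the 16 alternatives, in which the lowest adjusted p among members ran from 0.0985 (without SFR KO 1) to 0.386 (without SFR KO 2). The number of all genes called ran more widely than that, from 63 in the main analysis to 30 with edgeR, 483 with DESeq2, 129 with no filter, 98 with a minimum of 50, 18 with the GC trend removed, 20 with the length trend removed, and between 11 and 501 with a library left out. The median log2 difference over members was 0.05 and stayed above 0 throughout, from 0.00053 without SFR KO 1 to 0.09 without SFR KO 3. It was 0.0094 with the length trend removed and 0.07 with the GC trend removed. TMM and upper quartile scaling gave 0.06 and 0.07, of which the median of all genes made up 0.0037 and 0.02. Atp5b, next to 0, changed sign in 7 of 16 alternatives, while Cox7c, Cox7a2, Ndufa1, Ndufb6, Ndufb1-ps and Atp5md did so in 0 and Atp5pb in 1. Low read counts limit what can be said of Cox6b2 and Cox7a1. No paired analysis was possible because the labels give the libraries no replicate numbers.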
